A study of Mus musculus with 14 samples.

Results

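Embryonic stem cells of the mouse in which Dppa5a was knocked down (Dppa5a_KD) were compared with the control stem cells of that knockdown (KD_control). The comparison holds 4 of the 14 libraries of the series, 2 in each group, taken by the titles of the samples. The Dppa5a_KD cells carry the genotype label Dppa5a knockdown and the KD_control cells the label wild type. Both groups are labelled untreated and come from a stem cell line called home made. The stem cells were kept on inactivated fibroblast feeders in medium with serum replacement and leukemia inhibitory factor (LIF), and were passaged on gelatin before harvest. The sources used here do not give how the knockdown was made or whether 1 or several clones were used. The series also holds libraries of stem cells labelled wild type and untreated (mESC), of embryonic fibroblasts (MEF), and of RNA recovered by immunoprecipitation. The mESC libraries are not the labelled control of the knockdown, and whether they match KD_control in stock or culture was not tested. Their levels are given beside some genes as description only. It was set up to look at splicing and at the RNAs that Dppa5a binds. Splicing was not analysed here, because each gene has a single FPKM in the tables.

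Dppa5a is a small RNA-binding protein with a KH domain, and its transcript is abundant in early embryos, germ cells and naive stem cells. Mouse stem cells in LIF renew themselves through LIF signalling to STAT3, through bone morphogenetic protein (BMP) signalling to the Id genes, and through transcription factors such as Pou5f1 and Nanog. Fibroblast growth factor (FGF) signalling through the kinase ERK moves them toward differentiation and switches on its own inhibitors of the Spry and Dusp families. Myc drives the making of ribosomes.

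Values are FPKM, which are fragments per kilobase of transcript, scaled to the number of mapped fragments. The FPKM summed to 452710 and 585709 in Dppa5a_KD and to 567371 and 571975 in KD_control. The confidence bounds in the tables correspond to 20711360 and 21755593 effective fragments in Dppa5a_KD and to 24615063 and 25061629 in KD_control. Differences are log2 fold changes of Dppa5a_KD over KD_control on the log2(FPKM + 1) scale, which understates the change of low genes. Genes whose mean reached 1 FPKM in one group or the other were tested, and a gene is called higher or lower where the adjusted p of limma was under 0.05. Nothing in the labels says that the replicates are separate cultures. The p-values therefore measure only how far these samples spread, and that spread may be technical. In bulk samples fewer cells of a type and less RNA per cell cannot be told apart.

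Of 12345 genes tested, 4618 were called, which is 37.4%. There were 1678 higher genes (13.6%) and 2940 lower genes (23.8%), and 305 and 787 of them differed by at least 2-fold (2.47% and 6.38% of tested genes). The smallest adjusted p that any gene reached was 0.0060. The libraries of the 2 groups did not overlap in 75.6% of tested genes. The median log2 fold change of all tested genes was -0.11, and it was 0.02 after each library was rescaled to a common FPKM sum. Of the called genes 36.3% were higher, against 43.1% of 2916 calls after that rescaling and 50.8% of 6480 calls after a curve on transcript length was subtracted. A gene list with about 13.6% of its members higher and 23.8% lower stands where all tested genes stand. Of the 68 gene lists, 40 had fewer called members after the rescaling and 12 had more, while with the length curve 60 had more and 1 had fewer.

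The Dppa5a_KD libraries differed from each other more than the KD_control libraries did. The median absolute difference between replicates was 0.23 in Dppa5a_KD and 0.06 in KD_control, on the log2(FPKM + 1) scale. A difference of 2-fold or more separated the replicates for 298 genes in Dppa5a_KD (2.41% of tested genes) and for 13 genes in KD_control. Fits that leave out 1 KD_control library rest on the spread of the Dppa5a_KD pair alone, and they called 2440 genes without replicate 1 and 2415 without replicate 2. In these limma gave every gene the spread of its level and no weight to its own, so a gene whose knockdown libraries lie far apart can be called there. Fits that leave out 1 Dppa5a_KD library rest on the spread of the KD_control pair alone, and they called 8593 genes without replicate 1 and 9436 without replicate 2, so a call made or kept in them says nothing about stability. Where a fit without a KD_control library, the fit of all 8 RNA-seq libraries, the length curve, or another scaling or filter ended or gave the call of a gene named in the text, this is given in its paragraph. A gene whose mean reached 1 FPKM in only the group where it is high had to differ, and this is said where such a gene is named. Some lists also hold such a member that is not named, and this is not said for every list.

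**Figure D1:**
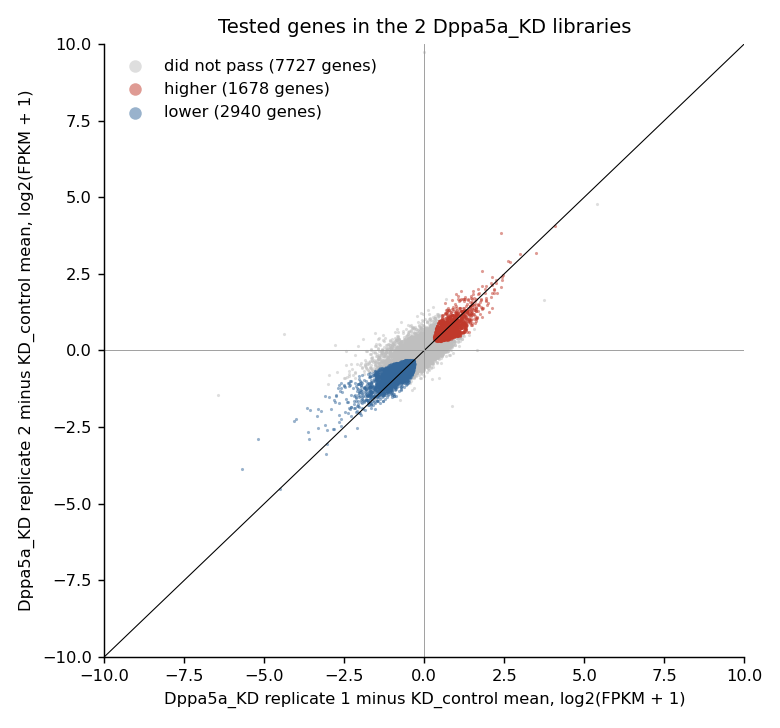
Difference from the KD_control mean on the log2(FPKM + 1) scale in Dppa5a_KD replicate 1 (horizontal axis) and replicate 2 (vertical axis), 1 point per tested gene. The 1678 genes called higher (red) and 2940 called lower (blue) lie in opposite corners along the line of equal values, and genes that did not pass are grey.

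Dppa5a (chromosome 9, 78367054 to 78368199, mm10 as deposited) had 101.1 and 358 FPKM in Dppa5a_KD, against 5126 and 5417 FPKM in KD_control (log2 fold change -4.78, SE 0.63, adjusted p = 0.0088). Both knockdown libraries lay far below both control libraries, and replicate 1 held less of the transcript than replicate 2. The mESC libraries had 1485 and 1818 FPKM, less than KD_control. Of the 10 other tested genes within 500 kb of Dppa5a, 3 were lower and none was higher (23.8% and 13.6% over all tested genes). Ooep, which encodes a protein of the oocyte subcortical complex related to Dppa5a, had 77.1 and 134 FPKM in Dppa5a_KD, against 135 and 137 FPKM in KD_control, and it did not pass (adjusted p = 0.29). Its replicate 1 lay below the other libraries and replicate 2 near them. Eef1a1, the elongation factor, had 6057 and 6438 FPKM in the knockdown libraries and 6130.2 and 6222 FPKM in the control libraries, and did not pass either (log2 fold change 0.02, SE 0.48, adjusted p = 0.98). Slc17a5, the lysosomal sialic acid exporter, had 2.22 and 2.45 FPKM in Dppa5a_KD, against 4.79 and 5.36 FPKM in KD_control (log2 fold change -0.86, SE 0.11, adjusted p = 0.0089), with every knockdown library below every control library. Ddx43, a helicase, had 0.966 and 1.05 FPKM in Dppa5a_KD, against 1.81 and 2.07 FPKM in KD_control (log2 fold change -0.55, SE 0.11, adjusted p = 0.021). The call of Ddx43 ended after rescaling to a common FPKM sum (adjusted p = 0.0697), after the 10 most abundant genes were left out (0.0592), without KD_control replicate 1 (0.0565) and without KD_control replicate 2 (0.149).

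The genes with the largest rises stood in both knockdown libraries well above both control libraries. Tril, a cofactor of Toll-like receptors, had 14.2 and 11.3 FPKM in Dppa5a_KD, against 0.288 and 0.405 FPKM in KD_control (log2 fold change 3.35, SE 0.15, adjusted p = 0.0060), and it passed the filter only through Dppa5a_KD. Gbx2, a homeobox factor of naive stem cells, had 89.1 and 99.7 FPKM in Dppa5a_KD, against 10.7 and 9.98 FPKM in KD_control (log2 fold change 3.07, SE 0.11, adjusted p = 0.0060). Neither gene overlapped between the groups, and the mESC libraries lay between them, at 2.07 and 1.19 FPKM for Tril and 31.6 and 35.3 FPKM for Gbx2. Krt17, a keratin, had 27.6 and 27.6 FPKM in Dppa5a_KD, against 3.96 and 4.49 FPKM in KD_control (log2 fold change 2.45, SE 0.11, adjusted p = 0.0060), and the mESC libraries had 0.937 and 3.23 FPKM. Enox1, a surface NADH oxidase, had 11.8 and 11.4 FPKM in Dppa5a_KD, against 1.78 and 1.66 FPKM in KD_control (log2 fold change 2.21, SE 0.10, adjusted p = 0.0060), and Aard had 82.7 and 101.3 FPKM in Dppa5a_KD, against 12.4 and 12.7 FPKM in KD_control (log2 fold change 2.77, SE 0.13, adjusted p = 0.0060). Of these, Enox1 and Aard had mESC levels near or above those of Dppa5a_KD, at 11.6 and 17.7 FPKM and 107 and 79.6 FPKM, while the mESC level of Krt17 lay below both groups.

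Ddit3, Dll1 and Cldn7 were among the genes with the largest falls. Ddit3, the stress-induced factor CHOP, had 8.42 and 17.5 FPKM in Dppa5a_KD, against 115 and 116 FPKM in KD_control (log2 fold change -3.15, SE 0.33, adjusted p = 0.0064). Dll1, a Notch ligand, had 1.12 and 0.695 FPKM in Dppa5a_KD, against 10.8 and 10.9 FPKM in KD_control (log2 fold change -2.65, SE 0.14, adjusted p = 0.0060), and it passed the filter only through KD_control. Cldn7, a claudin of tight junctions, had 6.05 and 8.16 FPKM in Dppa5a_KD, against 43.8 and 40.7 FPKM in KD_control (log2 fold change -2.43, SE 0.16, adjusted p = 0.0060). In these 3 genes the mESC libraries also lay far below KD_control, at 4.73 and 16.5 FPKM, 1.07 and 0.348 FPKM and 0.594 and 2.32 FPKM. Gadd45b had 8.11 and 20.0 FPKM in Dppa5a_KD, against 93.6 and 91.3 FPKM in KD_control (log2 fold change -2.75, SE 0.40, adjusted p = 0.011), and its relative Gadd45g had 0.0393 and 0.801 FPKM in Dppa5a_KD, against 9.18 and 9.72 FPKM in KD_control (log2 fold change -2.93, SE 0.28, adjusted p = 0.0062). Both encode stress-induced proteins, and neither overlapped between the groups, although Dppa5a_KD replicate 1 was lower than replicate 2 in each. Gadd45g passed the filter only through KD_control. Lrrc51 had 1.69 and 2.38 FPKM in Dppa5a_KD, against 15.8 and 16.4 FPKM in KD_control (log2 fold change -2.50, SE 0.15, adjusted p = 0.0060). Pla2g1b, a secreted phospholipase, had 1.82 and 8.55 FPKM in Dppa5a_KD, against 32 and 37.3 FPKM in KD_control (log2 fold change -2.78, SE 0.58, adjusted p = 0.023). The call of Pla2g1b ended without the filter on low values (adjusted p = 0.0526).

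**Figure D2:**
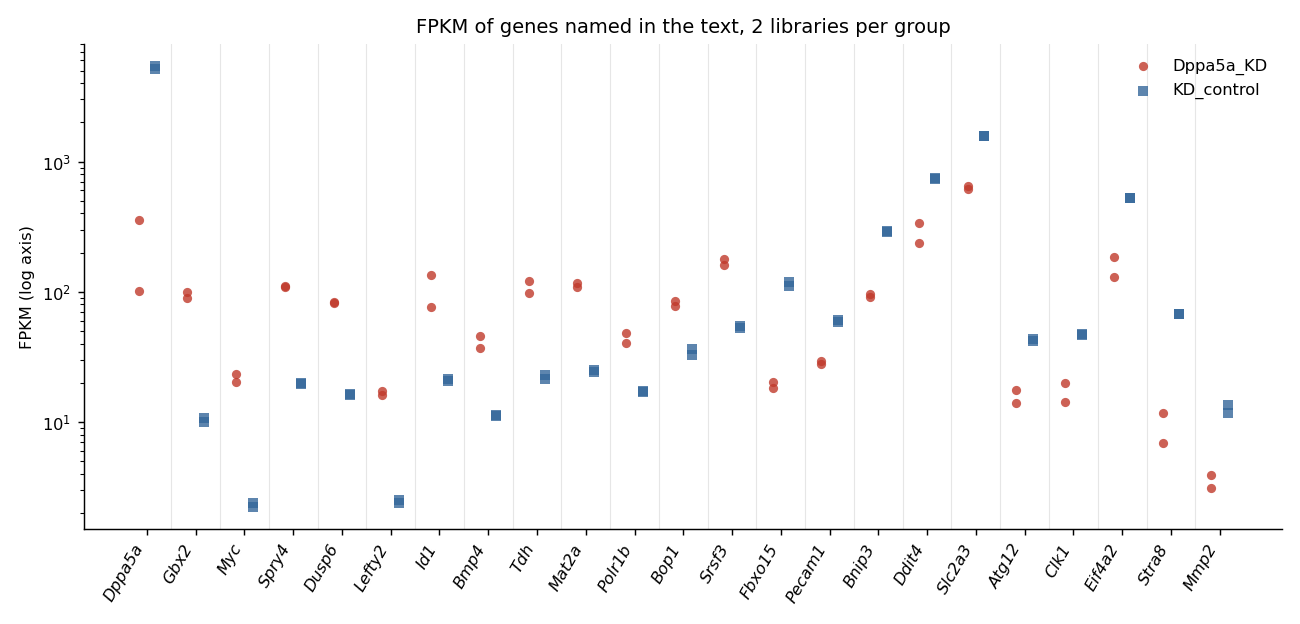
FPKM on a log axis of 23 genes named in the text, with the 2 Dppa5a_KD libraries (red circles) left of the 2 KD_control libraries (blue squares). The groups do not overlap for any gene drawn. The pair of Dppa5a_KD points is the more spread one for Dppa5a, Id1, Ddit4, Stra8, Eif4a2 and Clk1, among others.

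Of 14 core pluripotency factors tested, 5 rose and none fell (13.6% and 23.8% over all tested genes). The median log2 fold change was 0.28 against -0.11 over all tested genes. Zfp281, a zinc finger factor, had 19 and 15.8 FPKM in Dppa5a_KD, against 8.57 and 8.23 FPKM in KD_control (log2 fold change 0.96, SE 0.13, adjusted p = 0.0088). Dppa2, a chromatin protein of the early embryo, had 106 and 114 FPKM in Dppa5a_KD, against 65.3 and 62 FPKM in KD_control (log2 fold change 0.78, SE 0.11, adjusted p = 0.010). Gdf3, a ligand of the transforming growth factor family, had 51.3 and 66.3 FPKM in Dppa5a_KD, against 38.9 and 39.6 FPKM in KD_control (log2 fold change 0.56, SE 0.15, adjusted p = 0.045). In all 3 both knockdown libraries lay above both control libraries. The call of Dppa2 ended without KD_control replicate 1 (adjusted p = 0.107) and without KD_control replicate 2 (0.155). The call of Gdf3 ended without the filter on low values (adjusted p = 0.0702), with a filter at 5 FPKM (0.053), without KD_control replicate 1 (0.268) and without KD_control replicate 2 (0.242).

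Several of the most abundant core factors did not pass. Pou5f1, the factor Oct4, had 1046 and 1635 FPKM in Dppa5a_KD, against 1228 and 1306 FPKM in KD_control (log2 fold change 0.05, SE 0.32, adjusted p = 0.92), and the control libraries lay between the knockdown libraries. Nanog had 307 and 347 FPKM in Dppa5a_KD, against 360.3 and 356 FPKM in KD_control (log2 fold change -0.13, SE 0.16, adjusted p = 0.54). Tdgf1, a co-receptor of Nodal, had 902 and 1037 FPKM in Dppa5a_KD, against 1273 and 1267 FPKM in KD_control (log2 fold change -0.39, SE 0.24, adjusted p = 0.25), and Utf1, a chromatin factor, had 401 and 622 FPKM in Dppa5a_KD, against 327 and 302 FPKM in KD_control (log2 fold change 0.67, SE 0.26, adjusted p = 0.10). In Nanog, Tdgf1 and Utf1 the groups did not overlap, but no call was made. The summed level of all 14 core factors was 3462 and 4453 FPKM in Dppa5a_KD and 3848 and 3886 FPKM in KD_control, against 16.9 and 19.2 FPKM in the MEF libraries, so these stem cell markers were present in both groups. Pou5f1 was called higher with the length curve (log2 fold change 0.67, adjusted p = 0.029). That curve rests on transcript lengths estimated from the data, which are understated where reads are shared between copies. By this estimate Pou5f1 was among the shortest 10% of genes, and whether its length was understated was not tested. Utf1 was called higher after rescaling to a common FPKM sum (log2 fold change 0.81, adjusted p = 0.021), after the 10 most abundant genes were left out (log2 fold change 0.79, adjusted p = 0.023) and with the length curve (log2 fold change 0.87, adjusted p = 0.0054).

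Naive factors were split: of 19 tested, 6 were higher and 4 lower (13.6% and 23.8% over all tested genes). Their median log2 fold change was 0.36. Nr0b1, a nuclear receptor family member of stem cells, had 32 and 39.8 FPKM in Dppa5a_KD, against 16.5 and 14.9 FPKM in KD_control (log2 fold change 1.14, SE 0.14, adjusted p = 0.0082). Klf5, a factor that maintains self-renewal, had 153 and 132 FPKM in Dppa5a_KD, against 89.8 and 82.7 FPKM in KD_control (log2 fold change 0.71, SE 0.14, adjusted p = 0.018). Fbxo15, an F-box protein of stem cells, had 18.2 and 20.1 FPKM in Dppa5a_KD, against 119.9 and 110.4 FPKM in KD_control (log2 fold change -2.53, SE 0.11, adjusted p = 0.0060), and both mESC libraries lay above KD_control at 172 and 138 FPKM. Pecam1, an adhesion molecule, had 27.7 and 29.2 FPKM in Dppa5a_KD, against 60.2 and 58.6 FPKM in KD_control (log2 fold change -1.04, SE 0.10, adjusted p = 0.0062). Both fell in both knockdown libraries, Fbxo15 by more than Pecam1. Dppa3, a maternal factor, had 0.116 and 0.113 FPKM in Dppa5a_KD, against 2.55 and 2.74 FPKM in KD_control (log2 fold change -1.71, SE 0.10, adjusted p = 0.0060); it and 1 other member passed the filter only through KD_control, so their direction was fixed by the filter. The call of Klf5 ended without KD_control replicate 1 (adjusted p = 0.17) and without KD_control replicate 2 (0.269).

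Formative and primed factors were split as well, with 3 higher and 4 lower of 16 tested (13.6% and 23.8% over all tested genes). Their median log2 fold change was 0.00. Foxd3, a factor of the transition to the formative state, had 18.2 and 22.7 FPKM in Dppa5a_KD, against 5 and 4.03 FPKM in KD_control (log2 fold change 1.96, SE 0.16, adjusted p = 0.0060). Tcf15, a factor of primed-like stem cells, had 147 and 213 FPKM in Dppa5a_KD, against 66.5 and 65.3 FPKM in KD_control (log2 fold change 1.41, SE 0.20, adjusted p = 0.010). Otx2, which drives the formative state, had 1.11 and 0.926 FPKM in Dppa5a_KD, against 3.46 and 3.47 FPKM in KD_control (log2 fold change -1.15, SE 0.11, adjusted p = 0.0062). Foxd3 and Tcf15 were higher in both knockdown libraries and Otx2 was lower in both. The call of Otx2 ended with 8 libraries in the fit (adjusted p = 0.051).

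Among genes that FGF signalling through ERK switches on, 10 of 19 tested were higher and 1 was lower (13.6% and 23.8% over all tested genes), with a median log2 fold change of 0.52, and after rescaling to a common sum 7 were higher and 1 lower. Spry4, an inhibitor of receptor signalling, had 111 and 109 FPKM in Dppa5a_KD, against 19.7 and 20.0 FPKM in KD_control (log2 fold change 2.41, SE 0.10, adjusted p = 0.0060). Dusp6, the phosphatase of ERK, had 81.3 and 83.2 FPKM in Dppa5a_KD, against 16.3 and 16.2 FPKM in KD_control (log2 fold change 2.27, SE 0.10, adjusted p = 0.0060), and Dusp5, a related phosphatase, had 11.6 and 11.7 FPKM in Dppa5a_KD, against 5.32 and 5.41 FPKM in KD_control (log2 fold change 0.99, SE 0.10, adjusted p = 0.0063). For these 3 the replicates of each group lay close together and the groups far apart. Phlda1 had 12.4 and 14.5 FPKM in Dppa5a_KD, against 6.61 and 6.05 FPKM in KD_control (log2 fold change 0.98, SE 0.12, adjusted p = 0.0083), and Rasl11b, a small GTPase-like protein and the lower gene, had 1.65 and 3.03 FPKM in Dppa5a_KD, against 7.06 and 6.61 FPKM in KD_control (log2 fold change -1.26, SE 0.22, adjusted p = 0.016). Etv5, a transcription factor that FGF induces, had 136 and 138 FPKM in Dppa5a_KD, against 111 and 110.2 FPKM in KD_control, and did not pass (log2 fold change 0.30, SE 0.11, adjusted p = 0.097). Etv5 was called higher with the length curve (log2 fold change 0.35, adjusted p = 0.029) and with the shortest 10% of genes left out (log2 fold change 0.30, adjusted p = 0.0498).

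Of 11 ligands and receptors of the same pathway tested, 3 were higher and 6 lower (13.6% and 23.8% over all tested genes). Of the 11, 1 passed the filter only through Dppa5a_KD and 1 only through KD_control. Their median log2 fold change was -0.39, and after rescaling to a common sum 3 were lower. Fgf10 had 0.679 and 0.488 FPKM in Dppa5a_KD, against 2.53 and 2.62 FPKM in KD_control (log2 fold change -1.18, SE 0.11, adjusted p = 0.0062), and Fgf15 had 3.35 and 5.35 FPKM in Dppa5a_KD, against 10.6 and 11.1 FPKM in KD_control (log2 fold change -1.17, SE 0.20, adjusted p = 0.015). Fgfr4, a receptor, had 2.03 and 2.27 FPKM in Dppa5a_KD, against 4.21 and 4.17 FPKM in KD_control (log2 fold change -0.72, SE 0.11, adjusted p = 0.011). These 3 were lower in both knockdown libraries, and Fgf10 passed the filter only through KD_control. Fgfbp1, which releases FGF from the matrix, had 15.6 and 20.6 FPKM in Dppa5a_KD, against 7.77 and 9.44 FPKM in KD_control (log2 fold change 0.98, SE 0.18, adjusted p = 0.016), and Fgf17 had 6.26 and 8.42 FPKM in Dppa5a_KD, against 4.11 and 4.14 FPKM in KD_control (log2 fold change 0.69, SE 0.16, adjusted p = 0.028). The immediate early gene Egr1 had 2.97 and 2.88 FPKM in Dppa5a_KD, against 1.15 and 1.07 FPKM in KD_control (log2 fold change 0.90, SE 0.10, adjusted p = 0.0073) and Ier2 had 86.2 and 125 FPKM in Dppa5a_KD, against 40.5 and 38.4 FPKM in KD_control (log2 fold change 1.37, SE 0.20, adjusted p = 0.011), among 3 higher and 3 lower of 15 such genes. The call of Fgf17 ended without the filter on low values (adjusted p = 0.0573), with 8 libraries in the fit (0.107), without KD_control replicate 1 (0.101) and without KD_control replicate 2 (0.0968).

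In the Nodal and BMP pathways 8 of 28 tested genes were higher and 3 lower (13.6% and 23.8% over all tested genes). Their median log2 fold change was 0.18, and after rescaling to a common sum 8 were higher and 1 lower. Lefty2, a secreted inhibitor of Nodal, had 17.4 and 16 FPKM in Dppa5a_KD, against 2.51 and 2.37 FPKM in KD_control (log2 fold change 2.36, SE 0.11, adjusted p = 0.0060). Inhbb, a subunit of activin B, had 59.8 and 61.2 FPKM in Dppa5a_KD, against 13.2 and 12.9 FPKM in KD_control (log2 fold change 2.13, SE 0.09, adjusted p = 0.0060), and Bmp4, a BMP ligand, had 45.5 and 37 FPKM in Dppa5a_KD, against 11.3 and 11.2 FPKM in KD_control (log2 fold change 1.78, SE 0.13, adjusted p = 0.0060). All knockdown libraries exceeded all control libraries in each. Id1, a target of BMP signalling, had 75.9 and 133 FPKM in Dppa5a_KD, against 20.8 and 21.5 FPKM in KD_control (log2 fold change 2.20, SE 0.28, adjusted p = 0.0083), with replicate 2 above replicate 1. Id2 had 0.952 and 1.08 FPKM in Dppa5a_KD, against 2.05 and 2.81 FPKM in KD_control (log2 fold change -0.76, SE 0.15, adjusted p = 0.019). The ligand Nodal had 49 and 58.9 FPKM in Dppa5a_KD, against 55 and 55.3 FPKM in KD_control (log2 fold change -0.04, SE 0.13, adjusted p = 0.83), and the control libraries lay between the knockdown libraries. The call of Id2 ended without KD_control replicate 2 (adjusted p = 0.0628).

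Genes of the LIF and STAT3 pathway showed no common direction. Of 15 tested, 2 were higher and 2 lower (13.6% and 23.8% over all tested genes). The median log2 fold change was -0.07 in deposited values and 0.06 after rescaling to a common sum. Socs2, an inhibitor of cytokine signalling, had 21.4 and 20.2 FPKM in Dppa5a_KD, against 6.44 and 6.36 FPKM in KD_control (log2 fold change 1.56, SE 0.10, adjusted p = 0.0060), and Bcl3 had 56.9 and 70.4 FPKM in Dppa5a_KD, against 21.3 and 21.9 FPKM in KD_control (log2 fold change 1.51, SE 0.14, adjusted p = 0.0061). Pim1, a kinase induced by STAT3, had 57.6 and 55.5 FPKM in Dppa5a_KD, against 101.3 and 108 FPKM in KD_control (log2 fold change -0.87, SE 0.11, adjusted p = 0.0080). Socs3, an inhibitor of LIF signalling, had 105 and 127 FPKM in Dppa5a_KD, against 147 and 148 FPKM in KD_control, and did not pass (log2 fold change -0.35, SE 0.15, adjusted p = 0.12). The call of Pim1 ended with 8 libraries in the fit (adjusted p = 0.12) and without KD_control replicate 2 (0.0791).

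Of 23 Wnt genes tested 2 were higher and 8 lower (13.6% and 23.8% over all tested genes), and after rescaling to a common sum 2 were higher and 4 lower. Of the 23, 2 passed the filter only through KD_control. The median log2 fold change was -0.0017 in deposited values and 0.14 after rescaling to a common sum. Notum, which inactivates secreted Wnt, had 8.19 and 10.6 FPKM in Dppa5a_KD, against 2.02 and 1.7 FPKM in KD_control (log2 fold change 1.85, SE 0.16, adjusted p = 0.0060). Porcn, which attaches the lipid to Wnt, had 26.3 and 34.8 FPKM in Dppa5a_KD, against 79.1 and 80.04 FPKM in KD_control (log2 fold change -1.37, SE 0.16, adjusted p = 0.0074), and Wls, the carrier of secreted Wnt, had 2.11 and 2.04 FPKM in Dppa5a_KD, against 5.62 and 5.85 FPKM in KD_control (log2 fold change -1.13, SE 0.10, adjusted p = 0.0061). Both fell in both knockdown libraries while Notum rose in both. Ctnnb1, beta-catenin, had 235 and 226 FPKM in Dppa5a_KD, against 155 and 155 FPKM in KD_control (log2 fold change 0.57, SE 0.13, adjusted p = 0.027). The call of Porcn ended with 8 libraries in the fit (adjusted p = 0.0743). The call of Ctnnb1 ended with 8 libraries in the fit (adjusted p = 0.0702), without KD_control replicate 1 (0.438) and without KD_control replicate 2 (0.443).

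Myc had 20.1 and 23.3 FPKM in Dppa5a_KD, against 2.37 and 2.22 FPKM in KD_control (log2 fold change 2.78, SE 0.12, adjusted p = 0.0060), while the mESC libraries had 16.7 and 16 FPKM, close to the knockdown. Of the 11 genes of the Myc family and its partners tested, Myc was the only one higher and 4 were lower (13.6% and 23.8% over all tested genes). There was 1 higher and 1 lower after rescaling to a common sum, and with the length curve 3 were higher and 4 lower. Mxd3, which competes with Myc for its partner, had 4.57 and 7.06 FPKM in Dppa5a_KD, against 12.3 and 13.3 FPKM in KD_control (log2 fold change -1.04, SE 0.20, adjusted p = 0.019). Mycl had 2.12 and 2.27 FPKM in Dppa5a_KD, against 4.38 and 4.01 FPKM in KD_control (log2 fold change -0.70, SE 0.11, adjusted p = 0.012), and Mycn had 20.8 and 27 FPKM in Dppa5a_KD, against 18.3 and 17.8 FPKM in KD_control, and did not pass (log2 fold change 0.38, SE 0.15, adjusted p = 0.11). The call of Mycl ended after rescaling to a common FPKM sum (adjusted p = 0.0579), with 8 libraries in the fit (0.0562) and without KD_control replicate 1 (0.0815). Mycn was called higher with the length curve (log2 fold change 0.49, adjusted p = 0.027).

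Of 54 factors that build ribosomes, 32 were higher and none was lower, which is 59.3% higher against 13.6% of all tested genes. The median log2 fold change was 0.56, with 0.56 in replicate 1 and 0.61 in replicate 2 against the KD_control mean. Polr1b, a subunit of RNA polymerase I, had 48.3 and 40.7 FPKM in Dppa5a_KD, against 17.2 and 16.9 FPKM in KD_control (log2 fold change 1.33, SE 0.12, adjusted p = 0.0062). Ncl, nucleolin, had 187 and 137 FPKM in Dppa5a_KD, against 65.4 and 68.1 FPKM in KD_control (log2 fold change 1.25, SE 0.18, adjusted p = 0.011). Bop1, a factor of the large subunit, had 78.3 and 84.7 FPKM in Dppa5a_KD, against 36.2 and 32.8 FPKM in KD_control (log2 fold change 1.22, SE 0.11, adjusted p = 0.0062). In these genes both knockdown libraries lay above both control libraries. Imp4, a part of the U3 complex that processes ribosomal RNA, had 42 and 45.7 FPKM in Dppa5a_KD, against 18.8 and 17.3 FPKM in KD_control (log2 fold change 1.24, SE 0.11, adjusted p = 0.0060), and Tsr1, a factor of the small subunit, had 38.6 and 32.2 FPKM in Dppa5a_KD, against 16.4 and 16.1 FPKM in KD_control (log2 fold change 1.07, SE 0.12, adjusted p = 0.0074). Npm1, nucleophosmin, had 1036 and 1075 FPKM in Dppa5a_KD, against 698 and 713 FPKM in KD_control, and did not pass in the deposited values (log2 fold change 0.58, SE 0.21, adjusted p = 0.089). Nhp2, a core protein of H/ACA complexes, had 139 and 217 FPKM in Dppa5a_KD, against 97.2 and 97.6 FPKM in KD_control, and did not pass in them either (log2 fold change 0.83, SE 0.24, adjusted p = 0.051). Npm1 was called higher after rescaling to a common FPKM sum (log2 fold change 0.72, adjusted p = 0.034), after the 10 most abundant genes were left out (log2 fold change 0.70, adjusted p = 0.033) and with the length curve (log2 fold change 1.16, adjusted p = 0.025). Whether the estimated length of Npm1 behind that curve was understated was not tested. Nhp2 was called higher after rescaling to a common FPKM sum (log2 fold change 0.97, adjusted p = 0.014), after the 10 most abundant genes were left out (log2 fold change 0.95, adjusted p = 0.014), with median-ratio scaling (log2 fold change 0.90, adjusted p = 0.034) and with the length curve (log2 fold change 1.24, adjusted p = 0.00099).

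Promoter windows were searched for 8 short motifs, chosen after the results were known, on both strands in the 300 bases from 250 before to 50 after the start of a gene (RefSeq, GRCm38.p6, the build of mm10). Of 27025 symbols with a window, 9378 matched tested genes. The E-box CACGTG, the letters that Myc and related factors bind, was in 7.15% of all windows. For tested genes a gene was counted where any of its windows held the motif, so shares of genes and of windows are not alike. Counted this way, CACGTG was in 12.1% of tested genes with a window, in 190 of 1265 higher genes and in 244 of 2161 lower genes. It was in 12 of 50 ribosome biogenesis factors, 8 of 23 lysosome genes and 10 of 28 germline genes. CCGGAAG, the letters that Ets factors bind, was in 20.4% of tested genes with a window, 22.2% of higher genes and 12.4% of lower genes. It was in 19 of 50 ribosome biogenesis factors. GCGTG stood in 57.5% of higher genes and 56.8% of lower genes with a window. The longer motifs were rare: the CLEAR element of lysosome genes was in 0.821%, TGACGTCA in 3.74% and TGACGCAA in 1.09% of tested genes with a window. TCACGTGA was in 205 of these 9378 genes and in 3 of the 23 lysosome genes. The CLEAR element was in 0 of those 23, in 9 of 1265 higher genes and in 8 of 2161 lower genes. A match is a description of letters and not a site. Polr1b, Ncl and Bop1 rose by more than Tsr1, but no window with CACGTG was found for them. The windows of Imp4 and Tsr1 are shown because they hold CACGTG, in capitals:
Imp4 (chr1:34439579-34439878, plus strand): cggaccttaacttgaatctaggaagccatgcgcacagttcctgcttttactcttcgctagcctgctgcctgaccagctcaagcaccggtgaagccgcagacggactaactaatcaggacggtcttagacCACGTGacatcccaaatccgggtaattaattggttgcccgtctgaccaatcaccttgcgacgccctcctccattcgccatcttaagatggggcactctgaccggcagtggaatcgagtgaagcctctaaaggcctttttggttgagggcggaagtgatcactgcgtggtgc
Tsr1 (chr11:74897830-74898129, plus strand): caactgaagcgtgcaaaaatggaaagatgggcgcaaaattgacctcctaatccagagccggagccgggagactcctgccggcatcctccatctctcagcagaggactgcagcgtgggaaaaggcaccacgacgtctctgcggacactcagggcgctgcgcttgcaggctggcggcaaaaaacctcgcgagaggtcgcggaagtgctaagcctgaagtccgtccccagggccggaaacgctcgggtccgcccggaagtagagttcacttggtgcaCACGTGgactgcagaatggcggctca

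Of 35 translation factors tested 9 were higher and 1 lower (13.6% and 23.8% over all tested genes), with a median log2 fold change of 0.29. Eif6, which keeps the large ribosomal subunit apart, had 131 and 146 FPKM in Dppa5a_KD, against 69.2 and 67.3 FPKM in KD_control (log2 fold change 1.01, SE 0.12, adjusted p = 0.0075). Eif3b had 327 and 245 FPKM in Dppa5a_KD, against 148 and 147 FPKM in KD_control (log2 fold change 0.94, SE 0.19, adjusted p = 0.021), and Eif5 had 79 and 71.7 FPKM in Dppa5a_KD, against 40.1 and 40.9 FPKM in KD_control (log2 fold change 0.88, SE 0.11, adjusted p = 0.0080). Each was higher in both knockdown libraries. The lower one, the helicase Eif4a2, had 129 and 186 FPKM in Dppa5a_KD, against 523 and 523 FPKM in KD_control (log2 fold change -1.75, SE 0.22, adjusted p = 0.0084), and the mESC libraries had 279.9 and 170.1 FPKM. The call of Eif6 ended without KD_control replicate 2 (adjusted p = 0.0539). The call of Eif3b ended without KD_control replicate 1 (adjusted p = 0.163) and without KD_control replicate 2 (0.171). The call of Eif5 ended without KD_control replicate 1 (adjusted p = 0.058).

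Of 25 genes of nucleotide synthesis 7 were higher and 2 lower (median log2 fold change 0.20). Of 18 genes of threonine, glycine and one-carbon metabolism 5 were higher and 1 lower (0.27). Over all tested genes 13.6% were higher and 23.8% lower. Tdh, the threonine dehydrogenase on which mouse stem cells depend, had 98.3 and 122 FPKM in Dppa5a_KD, against 21.4 and 22.8 FPKM in KD_control (log2 fold change 2.26, SE 0.14, adjusted p = 0.0060), and the mESC libraries had 106 and 138 FPKM. Mat2a, which makes S-adenosylmethionine, had 109 and 118 FPKM in Dppa5a_KD, against 24 and 25.1 FPKM in KD_control (log2 fold change 2.16, SE 0.11, adjusted p = 0.0060). Both enzymes were higher in both knockdown libraries by more than 2 log2 units. Umps, the last enzyme of uridine monophosphate synthesis, had 62.1 and 63.7 FPKM in Dppa5a_KD, against 36.7 and 36.7 FPKM in KD_control (log2 fold change 0.76, SE 0.10, adjusted p = 0.0084). Odc1, the first enzyme of polyamine synthesis, had 525 and 531 FPKM in Dppa5a_KD, against 298 and 298 FPKM in KD_control (log2 fold change 0.82, SE 0.16, adjusted p = 0.019), and Prps1, which makes the ribose precursor of nucleotides, had 47.2 and 48.1 FPKM in Dppa5a_KD, against 88.1 and 88.2 FPKM in KD_control (log2 fold change -0.87, SE 0.10, adjusted p = 0.0073). Of these 5 genes only Prps1 was lower. The call of Umps ended without KD_control replicate 1 (adjusted p = 0.0942) and without KD_control replicate 2 (0.0956). The call of Odc1 ended without KD_control replicate 1 (adjusted p = 0.382) and without KD_control replicate 2 (0.381). The call of Prps1 ended without KD_control replicate 1 (adjusted p = 0.0521) and without KD_control replicate 2 (0.0528).

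Of 85 cytosolic ribosomal proteins 3 were higher and 1 lower (13.6% and 23.8% over all tested genes). Their median difference from the KD_control mean was -0.74 in replicate 1 and 0.07 in replicate 2 of Dppa5a_KD, and 45 members had the knockdown libraries on opposite sides of it. The median log2 fold change of the list was -0.35 in deposited values and 0.02 after the length curve was subtracted, so its direction turned with that setting. Rplp1, an acidic stalk protein, had 1898 and 4732 FPKM in Dppa5a_KD, against 4618 and 4863 FPKM in KD_control (log2 fold change -0.66, SE 0.58, adjusted p = 0.40), and Rps12 had 1910.0 and 3723 FPKM in Dppa5a_KD, against 4021 and 4000.2 FPKM in KD_control (log2 fold change -0.59, SE 0.48, adjusted p = 0.37). In both, replicate 1 was well below the other libraries and no call was made. Rpl26 had 141 and 189.8 FPKM in Dppa5a_KD, against 32 and 74.6 FPKM in KD_control (log2 fold change 1.72, SE 0.42, adjusted p = 0.034). Rps27 was the lower one, with 1.07 and 1.82 FPKM in Dppa5a_KD, against 7 and 10.3 FPKM in KD_control (log2 fold change -1.98, SE 0.24, adjusted p = 0.0077). Rpl26 and Rps27 lay far below Rplp1 and Rps12 in every library, and the KD_control libraries of Rpl26 lay apart. Whether their reads were shared with copies elsewhere was not tested. The call of Rpl26 ended without the filter on low values (adjusted p = 0.0706) and with 8 libraries in the fit (0.0694).

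Nuclear subunits of oxidative phosphorylation also had their knockdown libraries apart, with medians of -0.78 in replicate 1 and 0.12 in replicate 2, and 48 members on opposite sides. Of these 79 subunits 2 were higher and 2 lower (13.6% and 23.8% over all tested genes). Their median log2 fold change was -0.29 in deposited values and 0.06 after the length curve was subtracted. Cox7c, a subunit of cytochrome oxidase, had 288 and 781 FPKM in Dppa5a_KD, against 1283 and 1310.1 FPKM in KD_control (log2 fold change -1.45, SE 0.51, adjusted p = 0.082). Atp5b, the beta subunit of ATP synthase, had 1087 and 1387 FPKM in Dppa5a_KD, against 1492 and 1503 FPKM in KD_control (log2 fold change -0.29, SE 0.28, adjusted p = 0.44). Neither passed in the deposited values, although the groups did not overlap in either gene. Ndufs5, of complex I, had 22.3 and 62.6 FPKM in Dppa5a_KD, against 5.36 and 2.12 FPKM in KD_control (log2 fold change 3.11, SE 0.58, adjusted p = 0.018). Both ribosomal proteins and these subunits have short transcripts, with a median effective length of 0.504 and 0.507 kb against 3.10 kb over all tested genes. The call of Ndufs5 ended with 8 libraries in the fit (adjusted p = 0.0533). Cox7c was called lower after rescaling to a common FPKM sum (log2 fold change -1.30, adjusted p = 0.044), after the 10 most abundant genes were left out (log2 fold change -1.33, adjusted p = 0.046), with 8 libraries in the fit (log2 fold change -1.45, adjusted p = 0.047) and with the length curve (log2 fold change -0.92, adjusted p = 0.014).

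Of 26 hypoxia targets tested, 3 were higher and 13 lower (13.6% and 23.8% over all tested genes), with a median log2 fold change of -0.44, and no member had the knockdown libraries on opposite sides. After rescaling to a common sum 2 were higher and 6 lower. Bnip3, a mitophagy receptor, had 90.8 and 95.3 FPKM in Dppa5a_KD, against 291 and 288 FPKM in KD_control (log2 fold change -1.63, SE 0.12, adjusted p = 0.0060). Ddit4, an inhibitor of mTOR signalling, had 237 and 339.5 FPKM in Dppa5a_KD, against 729 and 747 FPKM in KD_control (log2 fold change -1.38, SE 0.24, adjusted p = 0.015). P4ha1, a collagen prolyl hydroxylase, had 34.6 and 33 FPKM in Dppa5a_KD, against 79.7 and 81 FPKM in KD_control (log2 fold change -1.22, SE 0.10, adjusted p = 0.0060), and Ndrg1, a stress-induced protein, had 30.1 and 29.8 FPKM in Dppa5a_KD, against 63.2 and 66.5 FPKM in KD_control (log2 fold change -1.09, SE 0.10, adjusted p = 0.0061). These 4 were lower in both knockdown libraries, and their mESC levels, at 10.7 and 55.4 FPKM for Bnip3 and 2.65 and 22.5 FPKM for Ndrg1, were lower still. Epas1, the factor HIF-2 alpha, had 44.3 and 34.7 FPKM in Dppa5a_KD, against 15.2 and 14.9 FPKM in KD_control (log2 fold change 1.33, SE 0.15, adjusted p = 0.0068), and Stc2, a secreted glycoprotein, had 38.8 and 44.1 FPKM in Dppa5a_KD, against 25.3 and 26.4 FPKM in KD_control (log2 fold change 0.66, SE 0.11, adjusted p = 0.015). The call of Bnip3 ended with 8 libraries in the fit (adjusted p = 0.0853). The call of Ddit4 ended with 8 libraries in the fit (adjusted p = 0.146), without KD_control replicate 1 (0.0738) and without KD_control replicate 2 (0.0811). The call of P4ha1 ended with 8 libraries in the fit (adjusted p = 0.0699). The call of Ndrg1 ended with 8 libraries in the fit (adjusted p = 0.289). The call of Stc2 ended with 8 libraries in the fit (adjusted p = 0.329), without KD_control replicate 1 (0.161) and without KD_control replicate 2 (0.116).

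Of 25 glycolytic genes 1 was higher and 6 lower, which is 4% and 24% against 13.6% and 23.8% over all tested genes. The share of lower genes was thus near that of all tested genes. The median log2 fold change was -0.34, and -0.10 after the length curve was subtracted. Eno2, an enolase, had 6.76 and 9.56 FPKM in Dppa5a_KD, against 59.2 and 65.7 FPKM in KD_control (log2 fold change -2.81, SE 0.18, adjusted p = 0.0060). Ldhb, a lactate dehydrogenase subunit, had 16.6 and 23.4 FPKM in Dppa5a_KD, against 97.3 and 98 FPKM in KD_control (log2 fold change -2.25, SE 0.18, adjusted p = 0.0060). Their mESC levels differed in direction, at 0.78 and 2.24 FPKM for Eno2, below both groups, and 145 and 198 FPKM for Ldhb, above both. Aldoc, an aldolase, had 23 and 28.7 FPKM in Dppa5a_KD, against 66.8 and 66.7 FPKM in KD_control (log2 fold change -1.34, SE 0.14, adjusted p = 0.0063), and Slc2a3, the glucose transporter GLUT3, had 644 and 614 FPKM in Dppa5a_KD, against 1573 and 1569 FPKM in KD_control (log2 fold change -1.32, SE 0.22, adjusted p = 0.014). Pdk1, an inhibitor of pyruvate dehydrogenase, was the higher one with 63.5 and 57.5 FPKM in Dppa5a_KD, against 45.1 and 43.4 FPKM in KD_control (log2 fold change 0.44, SE 0.11, adjusted p = 0.035). Gapdh had 3317 and 5527 FPKM in Dppa5a_KD, against 7558 and 7345 FPKM in KD_control, and did not pass (log2 fold change -0.80, SE 0.52, adjusted p = 0.28). The call of Aldoc ended with 8 libraries in the fit (adjusted p = 0.147). The call of Slc2a3 ended without KD_control replicate 1 (adjusted p = 0.26) and without KD_control replicate 2 (0.26). The call of Pdk1 ended after rescaling to a common FPKM sum (adjusted p = 0.0831), after the 10 most abundant genes were left out (0.0832), with 8 libraries in the fit (0.0808), without KD_control replicate 1 (0.369) and without KD_control replicate 2 (0.446).

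The letters ACGTG are the core of the element that hypoxia-inducible factors bind and a part of CACGTG. Counting a gene where any of its windows held them, they were in 29.8% of tested genes with a window. They were in 31.9% of higher and 28.8% of lower genes. They were in 14 of 21 hypoxia targets, 14 of 24 glycolytic genes and 16 of 28 germline genes. Eno2 and Ldhb fell by more than Bnip3, but no window with these letters was found for them. The windows of the lower genes Bnip3, Ddit4 and Aldoc are shown because they hold these letters on either strand, in capitals:
Bnip3 (chr7:138909457-138909756, minus strand): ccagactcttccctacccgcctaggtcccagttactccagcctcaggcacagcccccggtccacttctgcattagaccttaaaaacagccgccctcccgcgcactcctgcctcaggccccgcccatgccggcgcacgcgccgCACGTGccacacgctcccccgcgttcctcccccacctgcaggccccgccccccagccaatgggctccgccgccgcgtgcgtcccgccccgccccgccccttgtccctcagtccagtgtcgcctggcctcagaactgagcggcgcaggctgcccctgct
Ddit4 (chr10:59951721-59952020, minus strand): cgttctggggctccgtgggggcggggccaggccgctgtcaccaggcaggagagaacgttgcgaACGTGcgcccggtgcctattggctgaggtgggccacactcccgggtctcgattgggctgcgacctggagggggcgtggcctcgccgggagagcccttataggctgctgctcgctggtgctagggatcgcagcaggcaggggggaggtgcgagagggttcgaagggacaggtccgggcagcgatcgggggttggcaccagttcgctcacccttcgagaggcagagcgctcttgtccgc
Aldoc (chr11:78322823-78323122, plus strand): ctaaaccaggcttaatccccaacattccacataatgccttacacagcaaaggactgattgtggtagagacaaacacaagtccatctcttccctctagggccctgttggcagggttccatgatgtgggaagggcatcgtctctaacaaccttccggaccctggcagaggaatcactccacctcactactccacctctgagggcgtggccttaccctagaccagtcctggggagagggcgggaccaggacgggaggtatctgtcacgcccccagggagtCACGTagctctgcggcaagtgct

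Of 30 lysosome and autophagy genes 15 were lower and 1 higher, against 23.8% and 13.6% over all tested genes (median log2 fold change -0.56). After rescaling to a common sum 9 were lower. Atg12, which is conjugated during autophagosome formation, had 13.9 and 17.5 FPKM in Dppa5a_KD, against 43.1 and 42.2 FPKM in KD_control (log2 fold change -1.39, SE 0.14, adjusted p = 0.0063). Wipi1, an autophagy protein, had 6.18 and 6.13 FPKM in Dppa5a_KD, against 15.9 and 15.7 FPKM in KD_control (log2 fold change -1.23, SE 0.10, adjusted p = 0.0060). Grn, progranulin, had 44.3 and 55.3 FPKM in Dppa5a_KD, against 94.8 and 95.8 FPKM in KD_control (log2 fold change -0.93, SE 0.14, adjusted p = 0.012). All 3 fell in both knockdown libraries. Tfeb, the factor that switches on lysosome genes, was the higher one with 14.9 and 18.1 FPKM in Dppa5a_KD, against 11.3 and 11.2 FPKM in KD_control (log2 fold change 0.51, SE 0.13, adjusted p = 0.035), and Lamp1, a lysosomal membrane protein, had 192 and 203 FPKM in Dppa5a_KD, against 190.3 and 185 FPKM in KD_control, and did not pass (log2 fold change 0.07, SE 0.13, adjusted p = 0.68). The call of Tfeb ended without the filter on low values (adjusted p = 0.0556), with 8 libraries in the fit (0.153), without KD_control replicate 1 (0.252) and without KD_control replicate 2 (0.265).

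Of 25 genes of cholesterol synthesis 2 were higher and 8 lower (13.6% and 23.8% over all tested genes), with a median log2 fold change of -0.33. After rescaling to a common sum 1 was higher and 1 lower. Dhcr7, the last enzyme of the pathway, had 49.3 and 56.6 FPKM in Dppa5a_KD, against 109 and 105 FPKM in KD_control (log2 fold change -1.01, SE 0.12, adjusted p = 0.0078). It was lower in both knockdown libraries.

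Of 25 genes of the integrated stress response 9 were higher and 2, of which Ddit3 was described above, were lower. Over all tested genes 13.6% were higher and 23.8% lower. The median log2 fold change of the list was 0.34. Atf5, a transcription factor of this response, had 47.8 and 70.0 FPKM in Dppa5a_KD, against 29.7 and 29.8 FPKM in KD_control (log2 fold change 0.94, SE 0.20, adjusted p = 0.024), and Slc7a11, the cystine transporter, had 3.92 and 2.45 FPKM in Dppa5a_KD, against 0.895 and 1.1 FPKM in KD_control (log2 fold change 1.05, SE 0.20, adjusted p = 0.019). Slc7a11 passed the filter only through Dppa5a_KD. Sesn2 had 80.2 and 69.3 FPKM in Dppa5a_KD, against 42.3 and 40.9 FPKM in KD_control (log2 fold change 0.83, SE 0.12, adjusted p = 0.011). Asns, asparagine synthetase, had 579 and 583 FPKM in Dppa5a_KD, against 671 and 689 FPKM in KD_control, and did not pass (log2 fold change -0.23, SE 0.19, adjusted p = 0.38). Its level in mESC, 132 and 131 FPKM, was below both groups. The call of Sesn2 ended without KD_control replicate 1 (adjusted p = 0.0631) and without KD_control replicate 2 (0.0836).

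Of 21 heat shock chaperones 6 were higher and 2 lower (13.6% and 23.8% over all tested genes), with a median log2 fold change of 0.19. Hsph1 had 113 and 105 FPKM in Dppa5a_KD, against 44 and 44.6 FPKM in KD_control (log2 fold change 1.28, SE 0.11, adjusted p = 0.0060), and Dnaja1, a co-chaperone, had 45.2 and 50.8 FPKM in Dppa5a_KD, against 23.7 and 23.6 FPKM in KD_control (log2 fold change 0.99, SE 0.11, adjusted p = 0.0069). Hspa4 had 215 and 167 FPKM in Dppa5a_KD, against 92.1 and 93 FPKM in KD_control (log2 fold change 1.03, SE 0.16, adjusted p = 0.013). Hspa8, the abundant constitutive chaperone, had 3135 and 3215 FPKM in Dppa5a_KD, against 1831 and 1847 FPKM in KD_control, and did not pass (log2 fold change 0.79, SE 0.32, adjusted p = 0.11), although the groups did not overlap. Of 20 genes of oxidative stress 2 were higher and 2 lower. Srxn1, which repairs peroxiredoxins, had 57 and 57 FPKM in Dppa5a_KD, against 17.5 and 18.7 FPKM in KD_control (log2 fold change 1.60, SE 0.10, adjusted p = 0.0060), and Gpx4, which reduces lipid peroxides, had 524 and 839 FPKM in Dppa5a_KD, against 2207 and 2145 FPKM in KD_control (log2 fold change -1.71, SE 0.32, adjusted p = 0.018). The call of Hspa4 ended without KD_control replicate 1 (adjusted p = 0.071) and without KD_control replicate 2 (0.0662). The call of Gpx4 ended without KD_control replicate 1 (adjusted p = 0.152) and without KD_control replicate 2 (0.142). Hspa8 was called higher after rescaling to a common FPKM sum (log2 fold change 0.93, adjusted p = 0.025), after the 10 most abundant genes were left out (log2 fold change 0.91, adjusted p = 0.024), with the length curve (log2 fold change 0.92, adjusted p = 0.0046) and with the shortest 10% of genes left out (log2 fold change 0.79, adjusted p = 0.015).

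Of 33 cyclins, kinases and inhibitors of the cell cycle 6 were higher and 10 lower (13.6% and 23.8% over all tested genes). Of the 33, 2 passed the filter only through KD_control. Ccnd1 had 34.1 and 33 FPKM in Dppa5a_KD, against 18 and 18.4 FPKM in KD_control (log2 fold change 0.84, SE 0.09, adjusted p = 0.0071), and Ccne1 had 144 and 165 FPKM in Dppa5a_KD, against 92.9 and 94.1 FPKM in KD_control (log2 fold change 0.71, SE 0.13, adjusted p = 0.017). E2f2, a factor of the entry into S phase, had 17.8 and 14.9 FPKM in Dppa5a_KD, against 6.2 and 6.87 FPKM in KD_control (log2 fold change 1.20, SE 0.13, adjusted p = 0.0068). Inhibitors were called in both directions, and among the lower ones was Cdkn1b, the inhibitor p27, at 30.7 and 30.6 FPKM in Dppa5a_KD, against 60.5 and 61.7 FPKM in KD_control (log2 fold change -0.97, SE 0.10, adjusted p = 0.0063). Cdkn2c had 1.22 and 1.37 FPKM in Dppa5a_KD, against 4.6 and 3.03 FPKM in KD_control (log2 fold change -1.05, SE 0.19, adjusted p = 0.016), and Cdkn2a had 0.193 and 0.563 FPKM in Dppa5a_KD, against 2.29 and 1.99 FPKM in KD_control (log2 fold change -1.20, SE 0.17, adjusted p = 0.0096), a gene that passed the filter only through KD_control. The call of Ccne1 ended without KD_control replicate 1 (adjusted p = 0.234) and without KD_control replicate 2 (0.221).

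Of 27 targets of p53 tested 3 were higher and 10 lower (median log2 fold change -0.34), and of 23 apoptosis regulators 3 were higher and 7 lower. Over all tested genes 13.6% were higher and 23.8% lower. Ccng2, an atypical cyclin, had 18.1 and 22.7 FPKM in Dppa5a_KD, against 50.7 and 50.8 FPKM in KD_control (log2 fold change -1.28, SE 0.14, adjusted p = 0.0067), and Trp53 itself had 179 and 247 FPKM in Dppa5a_KD, against 128 and 128 FPKM in KD_control (log2 fold change 0.72, SE 0.19, adjusted p = 0.043). Bcl2l1, a survival protein, had 32.9 and 30.1 FPKM in Dppa5a_KD, against 16.3 and 16.8 FPKM in KD_control (log2 fold change 0.89, SE 0.10, adjusted p = 0.0073), while Mcl1, another one, had 201 and 196 FPKM in Dppa5a_KD, against 377 and 373 FPKM in KD_control (log2 fold change -0.91, SE 0.14, adjusted p = 0.012). These survival genes lay on opposite sides of the control, each in both libraries. The call of Trp53 ended without the filter on low values (adjusted p = 0.0701), with a filter at 5 FPKM (0.0512), with 8 libraries in the fit (0.0598), without KD_control replicate 1 (0.275) and without KD_control replicate 2 (0.282). The call of Mcl1 ended without KD_control replicate 1 (adjusted p = 0.201) and without KD_control replicate 2 (0.19).

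Of 30 Polycomb genes 3 were higher and 7 lower (median log2 fold change -0.22), shares near the 13.6% and 23.8% of all tested genes. Cbx8, a reader of the Polycomb mark, had 1.44 and 1.27 FPKM in Dppa5a_KD, against 4.92 and 5 FPKM in KD_control (log2 fold change -1.34, SE 0.11, adjusted p = 0.0060). Kdm2b, which brings a Polycomb complex to unmethylated DNA, had 71.4 and 62.6 FPKM in Dppa5a_KD, against 38.4 and 37.2 FPKM in KD_control (log2 fold change 0.81, SE 0.12, adjusted p = 0.010), and Jarid2, a cofactor of the methylating complex, had 104 and 81.9 FPKM in Dppa5a_KD, against 52.8 and 51.6 FPKM in KD_control (log2 fold change 0.81, SE 0.15, adjusted p = 0.017). Cbx8 fell, and Kdm2b and Jarid2 rose, each in both libraries. Ezh2, the methylating enzyme, had 55.6 and 49.3 FPKM in Dppa5a_KD, against 62.1 and 62 FPKM in KD_control, and did not pass (log2 fold change -0.24, SE 0.11, adjusted p = 0.16). The call of Kdm2b ended without KD_control replicate 1 (adjusted p = 0.0647) and without KD_control replicate 2 (0.0867). The call of Jarid2 ended without KD_control replicate 1 (adjusted p = 0.0887) and without KD_control replicate 2 (0.106).

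Hox genes, which Polycomb keeps silent in stem cells, were low in every library, and 9 of 39 passed the filter. All 9 were lower (23.8% over all tested genes), but 7 passed only through KD_control, so their count is fixed in part by the filter. Hoxb13 had 2.195 and 1.98 FPKM in Dppa5a_KD, against 7.06 and 6.67 FPKM in KD_control (log2 fold change -1.35, SE 0.11, adjusted p = 0.0060), above 1 FPKM in all 4 libraries. Hoxb2 had 0.117 and 0.114 FPKM in Dppa5a_KD, against 1.75 and 2.46 FPKM in KD_control (log2 fold change -1.47, SE 0.14, adjusted p = 0.0063), one of those that passed through KD_control.

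Of 21 genes that write or erase DNA methylation 3 were higher and 5 lower, shares near those of all tested genes (13.6% and 23.8%). There was 1 higher and 4 were lower after rescaling to a common sum, and 2 of the 21 passed the filter only through KD_control. Zfp57, which keeps imprints methylated, had 170.4 and 216 FPKM in Dppa5a_KD, against 93.6 and 99.1 FPKM in KD_control (log2 fold change 0.99, SE 0.16, adjusted p = 0.014). Dnmt3l, a cofactor of the methyltransferases, had 144 and 196 FPKM in Dppa5a_KD, against 334 and 336 FPKM in KD_control (log2 fold change -0.99, SE 0.20, adjusted p = 0.020). H19, an imprinted long RNA, had 8.01 and 9.95 FPKM in Dppa5a_KD, against 27.4 and 29.2 FPKM in KD_control (log2 fold change -1.56, SE 0.13, adjusted p = 0.0060), among 3 higher and 6 lower of 30 imprinted genes, of which 1 was higher and 3 were lower after rescaling to a common sum. The call of Zfp57 ended without KD_control replicate 1 (adjusted p = 0.103) and without KD_control replicate 2 (0.0689). The call of Dnmt3l ended with 8 libraries in the fit (adjusted p = 0.0901), without KD_control replicate 1 (0.124) and without KD_control replicate 2 (0.129).

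Germline genes were lower in 19 of 32 tested and higher in none (23.8% and 13.6% over all tested genes), but 9 passed the filter only through KD_control. The counts were 15 lower and 1 higher after rescaling to a common sum. Stra8, which starts meiosis, had 6.95 and 11.8 FPKM in Dppa5a_KD, against 67.8 and 67.5 FPKM in KD_control (log2 fold change -2.77, SE 0.24, adjusted p = 0.0060). Stag3, a cohesin of meiosis, had 3.09 and 2.186 FPKM in Dppa5a_KD, against 9.41 and 9.78 FPKM in KD_control (log2 fold change -1.55, SE 0.15, adjusted p = 0.0063), and Mael, of the small RNA pathway of germ cells, had 4.68 and 5.28 FPKM in Dppa5a_KD, against 14.3 and 12.6 FPKM in KD_control (log2 fold change -1.28, SE 0.12, adjusted p = 0.0062). All 3 were above 1 FPKM in all 4 libraries and lower in both knockdown libraries. Sycp3, of the synaptonemal complex, had 0.821 and 0.689 FPKM in Dppa5a_KD, against 4.67 and 4.93 FPKM in KD_control (log2 fold change -1.72, SE 0.11, adjusted p = 0.0060) and passed only through KD_control. The mESC levels lay above KD_control for Sycp3, at 22.1 and 10.5 FPKM, and below KD_control for Mael, at 5.82 and 7.53 FPKM.

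Genes of the 2-cell stage were split, with 4 higher and 8 lower of 18 (13.6% and 23.8% over all tested genes). Of the 18, 9 passed the filter only through KD_control. Zscan4b had 5.54 and 7.29 FPKM in Dppa5a_KD, against 2.82 and 3.03 FPKM in KD_control (log2 fold change 0.91, SE 0.15, adjusted p = 0.014) and Zscan4c had 6.03 and 8.15 FPKM in Dppa5a_KD, against 3.94 and 3.55 FPKM in KD_control (log2 fold change 0.76, SE 0.16, adjusted p = 0.025), near-identical copies whose reads the counting may have shared out. The call of Zscan4b ended with 8 libraries in the fit (adjusted p = 0.261). The call of Zscan4c ended without the filter on low values (adjusted p = 0.0519), with 8 libraries in the fit (0.201) and without KD_control replicate 2 (0.0938).

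Lineage markers were called in both directions. Among 11 trophectoderm genes 1 passed the filter only through KD_control, and so did 1 of 7 neural genes. Of 11 trophectoderm genes 2 were higher and 6 lower: Tead4, a factor of this lineage, had 17.2 and 12.6 FPKM in Dppa5a_KD, against 4.1 and 4.21 FPKM in KD_control (log2 fold change 1.61, SE 0.17, adjusted p = 0.0063), while Krt18, a keratin, had 5.32 and 5.09 FPKM in Dppa5a_KD, against 15.05 and 15.7 FPKM in KD_control (log2 fold change -1.40, SE 0.10, adjusted p = 0.0060). Of 15 primitive endoderm genes 2 were higher and 8 lower, and 4 of the 15 passed the filter only through KD_control. Of these 15, 1 was higher and 5 were lower after rescaling to a common sum. Amn, an endocytic receptor subunit, had 1.37 and 1.57 FPKM in Dppa5a_KD, against 4.97 and 4.84 FPKM in KD_control (log2 fold change -1.26, SE 0.11, adjusted p = 0.0060). Of 7 neural genes 3 were higher and 1 lower. Over all tested genes 13.6% were higher and 23.8% lower. Sox1 had 3.8 and 4.18 FPKM in Dppa5a_KD, against 1.4 and 1.29 FPKM in KD_control (log2 fold change 1.09, SE 0.11, adjusted p = 0.0063) and Olig2 had 8.95 and 11.4 FPKM in Dppa5a_KD, against 3.83 and 3.65 FPKM in KD_control (log2 fold change 1.23, SE 0.14, adjusted p = 0.0074), and Olig2 was listed at 0 in both mESC libraries. The call of Krt18 ended with 8 libraries in the fit (adjusted p = 0.13). The call of Amn ended with 8 libraries in the fit (adjusted p = 0.135).

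Of 13 markers of fibroblasts, which served as feeders, 9 were lower and none higher (23.8% and 13.6% over all tested genes), and 2 of the 13 passed the filter only through KD_control. Of the 13, 6 were lower and 1 was higher after rescaling to a common sum. The summed level of all 30 listed markers, tested or not, was 214 and 195 FPKM in Dppa5a_KD and 276 and 273 FPKM in KD_control. In MEF it was 16493 and 14698 FPKM. Mmp2, a matrix protease, had 3.13 and 3.91 FPKM in Dppa5a_KD, against 13.5 and 11.7 FPKM in KD_control (log2 fold change -1.59, SE 0.14, adjusted p = 0.0061), and Pdgfrb, a growth factor receptor, had 2.81 and 2.32 FPKM in Dppa5a_KD, against 7.89 and 7.6 FPKM in KD_control (log2 fold change -1.30, SE 0.12, adjusted p = 0.0062). The part of this difference in the other results was not tested. Of 26 actin and contractile genes 4 were higher and 7 lower, and after rescaling to a common sum 4 were higher and 4 lower. Actb, beta-actin, had 1646 and 994 FPKM in Dppa5a_KD, against 383 and 378 FPKM in KD_control (log2 fold change 1.75, SE 0.30, adjusted p = 0.015), Lmna, lamin A, had 51.1 and 49.8 FPKM in Dppa5a_KD, against 22.1 and 23 FPKM in KD_control (log2 fold change 1.13, SE 0.10, adjusted p = 0.0060), and Tpm2, a tropomyosin, had 3.55 and 4.47 FPKM in Dppa5a_KD, against 13.3 and 12.6 FPKM in KD_control (log2 fold change -1.48, SE 0.13, adjusted p = 0.0061). The call of Actb ended without KD_control replicate 1 (adjusted p = 0.105) and without KD_control replicate 2 (0.111).

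Of 18 interferon-related genes 2 were higher and 6 lower (13.6% and 23.8% over all tested genes). Their median differences were -0.79 in replicate 1 and -0.07 in replicate 2. The class I genes H2-K1, with 21 and 28 FPKM in Dppa5a_KD, against 68.8 and 66.2 FPKM in KD_control (log2 fold change -1.44, SE 0.16, adjusted p = 0.0071), and H2-D1, with 9.98 and 14.96 FPKM in Dppa5a_KD, against 32.4 and 29.1 FPKM in KD_control (log2 fold change -1.26, SE 0.20, adjusted p = 0.013), present peptides at the surface. Psmb9, a subunit of the immunoproteasome, had 0.535 and 2.59 FPKM in Dppa5a_KD, against 8.84 and 7.51 FPKM in KD_control (log2 fold change -1.96, SE 0.42, adjusted p = 0.024). Ddx58, the RNA sensor RIG-I, had 4.5 and 4.57 FPKM in Dppa5a_KD, against 0.922 and 1.04 FPKM in KD_control (log2 fold change 1.48, SE 0.10, adjusted p = 0.0060). The class I genes fell in both knockdown libraries, and Ddx58, which passed the filter only through Dppa5a_KD, rose in both. The call of H2-D1 ended with 8 libraries in the fit (adjusted p = 0.0765). The call of Psmb9 ended without the filter on low values (adjusted p = 0.0536).

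Genes that host small nucleolar RNAs in their introns were lower in 9 of 18 and higher in none (23.8% and 13.6% over all tested genes). Their median log2 fold change was -1.08. The median difference was -1.56 in replicate 1 and -0.71 in replicate 2. Snhg12 had 3.71 and 15.2 FPKM in Dppa5a_KD, against 75.3 and 82.8 FPKM in KD_control (log2 fold change -3.20, SE 0.59, adjusted p = 0.017), and Snhg7 had 1.96 and 4.91 FPKM in Dppa5a_KD, against 21.1 and 21.3 FPKM in KD_control (log2 fold change -2.41, SE 0.34, adjusted p = 0.0098). Snhg6 had 41.2 and 102 FPKM in Dppa5a_KD, against 267 and 251.1 FPKM in KD_control (log2 fold change -1.98, SE 0.43, adjusted p = 0.026). The fall was larger in replicate 1 for each of them. Snhg3 had 5.21 and 27.4 FPKM in Dppa5a_KD, against 23.6 and 26.4 FPKM in KD_control, and did not pass (log2 fold change -0.97, SE 0.72, adjusted p = 0.33), and its replicate 2 lay with the controls. The median effective length of the list was 0.914 kb. The call of Snhg6 ended without the filter on low values (adjusted p = 0.0556). Snhg3 was called lower without KD_control replicate 1 (log2 fold change -1.05, adjusted p = 0.0062) and without KD_control replicate 2 (log2 fold change -0.89, adjusted p = 0.025).

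Of 11 SR proteins 6 were higher and none lower, with Srsf3 at 161 and 177 FPKM in Dppa5a_KD, against 54.4 and 53.1 FPKM in KD_control (log2 fold change 1.64, SE 0.12, adjusted p = 0.0060). Of 48 core spliceosome genes 8 were higher and 1 lower. Over all tested genes 13.6% were higher and 23.8% lower. Of 21 SR kinases and cofactors 5 were higher and 6 lower, and after rescaling to a common sum 3 were higher and 4 lower. Among the lower ones were the Clk kinases, which phosphorylate SR proteins: Clk1 had 14.1 and 20.0 FPKM in Dppa5a_KD, against 46.9 and 47.7 FPKM in KD_control (log2 fold change -1.44, SE 0.18, adjusted p = 0.0081), Clk4 had 4.99 and 6.51 FPKM in Dppa5a_KD, against 16.1 and 15.6 FPKM in KD_control (log2 fold change -1.33, SE 0.14, adjusted p = 0.0068), Clk3 had 13 and 15.7 FPKM in Dppa5a_KD, against 31.2 and 30.1 FPKM in KD_control (log2 fold change -1.05, SE 0.12, adjusted p = 0.0075) and Clk2 had 6.77 and 8.92 FPKM in Dppa5a_KD, against 14.1 and 13.2 FPKM in KD_control (log2 fold change -0.74, SE 0.15, adjusted p = 0.022). All 4 Clk kinases fell in both knockdown libraries. Snrnp27, a protein of the tri-snRNP, had 41.4 and 62.8 FPKM in Dppa5a_KD, against 118 and 121 FPKM in KD_control (log2 fold change -1.21, SE 0.22, adjusted p = 0.016). The call of Clk2 ended without KD_control replicate 1 (adjusted p = 0.0999) and without KD_control replicate 2 (0.0561).

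**Figure D3:**
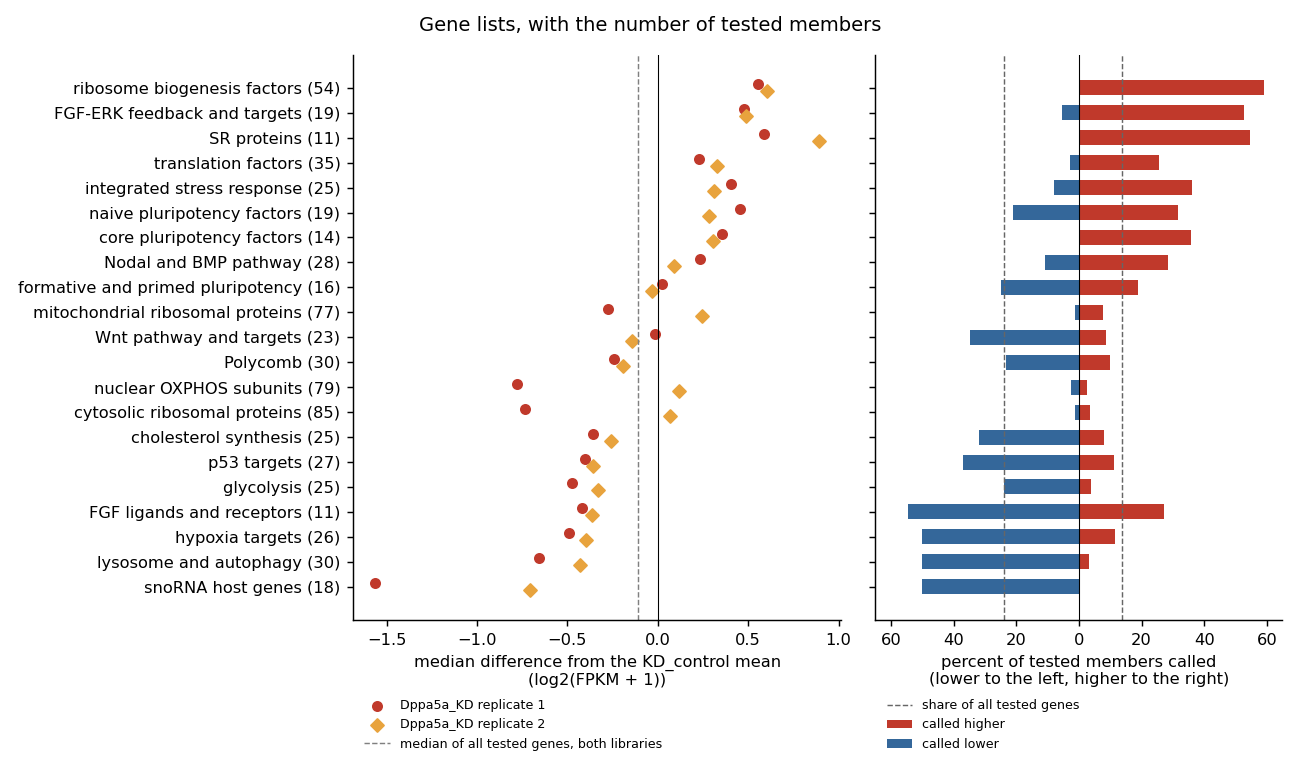
Median difference of each Dppa5a_KD library from the KD_control mean on the log2(FPKM + 1) scale (left) and percent of tested members called higher or lower (right) for 21 gene lists. Dashed lines give all tested genes, 13.6% higher and 23.8% lower; replicate 1 and replicate 2 lie close together for ribosome biogenesis factors and far apart for cytosolic ribosomal proteins.

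The difference between the Dppa5a_KD libraries followed transcript length. Median values of replicate 1 minus replicate 2 ran from -0.62 in the shortest 10% of genes to 0.33 in the longest 10%, against -0.01 and 0.00 for the KD_control pair. The mESC pair showed a trend of the same sign, from -0.53 to 0.18. The MEF pair showed a smaller trend of the opposite sign, from 0.11 to -0.05. Replicate 1 differed from KD_control by -0.64 in the shortest 10% and 0.22 in the longest 10%, and replicate 2 by 0.02 and -0.12. The shortest 10% held 5.80% higher and 17.1% lower calls. In the fit with the length curve all 141 named genes that were called kept their call. That fit called 6480 genes against 4618 without the curve, so a call kept there says little about stability.

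**Figure D4:**
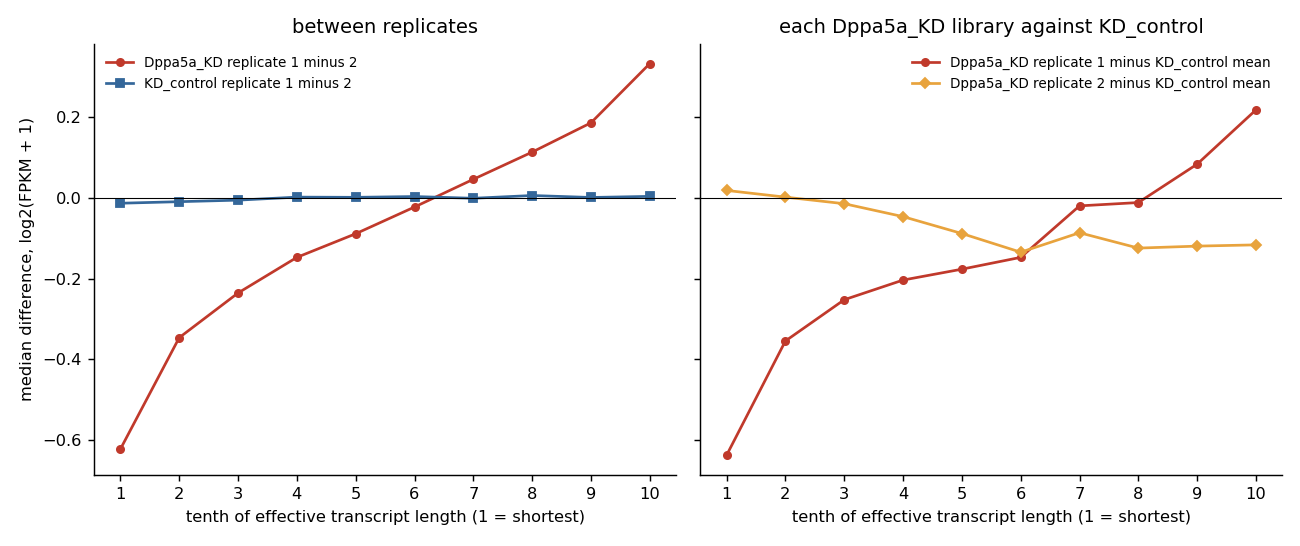
Median difference on the log2(FPKM + 1) scale by effective transcript length, in 10 groups of equal size, between replicates (left) and between each Dppa5a_KD library and the KD_control mean (right). The Dppa5a_KD pair runs from -0.62 to 0.33 while the KD_control pair stays near 0.

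Some genes differed widely between the knockdown libraries. Eif3j1 had 39.2 and 8.56 FPKM in Dppa5a_KD, against 0.0381 and 7.89 FPKM in KD_control (log2 fold change 2.69, SE 1.21, adjusted p = 0.14), and its near-identical copy Eif3j2 had 0.00704 and 29.1 FPKM in Dppa5a_KD, against 24.1 and 16.3 FPKM in KD_control (log2 fold change -1.92, SE 1.60, adjusted p = 0.38). Their sum was 39.2 and 37.7 FPKM in Dppa5a_KD and 24.1 and 24.2 FPKM in KD_control, so the sum was steady within each group while each copy alone is uncertain. Uqcr11, a respiratory subunit, had 67.3 and 289 FPKM in Dppa5a_KD, against 187 and 206 FPKM in KD_control (log2 fold change -0.49, SE 0.69, adjusted p = 0.60), and Ndufa1, another, had 13.1 and 74.5 FPKM in Dppa5a_KD, against 76.5 and 75 FPKM in KD_control (log2 fold change -1.23, SE 0.79, adjusted p = 0.27). Both are short transcripts and were higher in replicate 2. Map3k1, a kinase, had 15.3 and 7.5 FPKM in Dppa5a_KD, against 10.14 and 10.4 FPKM in KD_control (log2 fold change 0.06, SE 0.32, adjusted p = 0.89), and Nup98, a nuclear pore protein, had 55.4 and 28.7 FPKM in Dppa5a_KD, against 32.1 and 32.3 FPKM in KD_control (log2 fold change 0.30, SE 0.31, adjusted p = 0.48). Both were higher in replicate 1. None of these 6 genes passed in the fit of all 4 libraries. Eif3j1 was called higher without KD_control replicate 1 (log2 fold change 1.14, adjusted p = 0.0024) and without KD_control replicate 2 (log2 fold change 4.24, adjusted p = 2.1e-39). Eif3j2 was called lower without KD_control replicate 1 (log2 fold change -1.66, adjusted p = 3.8e-06) and without KD_control replicate 2 (log2 fold change -2.19, adjusted p = 3.1e-10). Ndufa1 was called lower without KD_control replicate 1 (log2 fold change -1.22, adjusted p = 0.0021) and without KD_control replicate 2 (log2 fold change -1.25, adjusted p = 0.0017).

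By chromosome, the lowest median log2 fold changes were those of chromosome 6, at -0.24 over 583 genes with 9.61% higher and 30.4% lower, and of chromosome X, at -0.21 over 409 genes with 8.80% higher and 27.9% lower. The other chromosomes had medians from -0.15 to -0.04. In windows of 20 Mb with at least 30 tested genes, a size chosen after windows had been looked at, the lowest of 126 medians was -0.56 over 42 genes in the first 20 Mb of chromosome 14. The next was -0.47 over 113 genes of chromosome 6 between 120 and 140 Mb, with 9 higher and 48 lower. In the window of chromosome 14 the median of Dppa5a_KD minus mESC was -0.34 and that of KD_control minus mESC was 0.11, and in the window of chromosome 6 these medians were 0.12 and 0.45. After the length curve was subtracted these 2 windows stood at -0.37 and -0.35. What sets them apart was not tested.

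**Figure D5:**
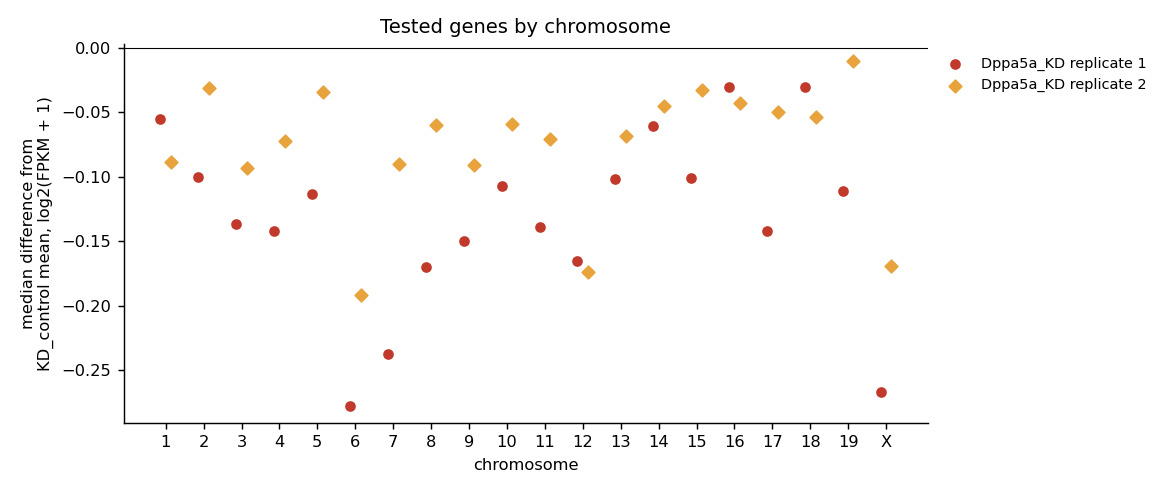
Median difference of each Dppa5a_KD library from the KD_control mean on the log2(FPKM + 1) scale over the tested genes of each chromosome. Both libraries are low on chromosomes 6 and X, with median log2 fold changes of -0.24 and -0.21.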

How the data were processed

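Total RNA was isolated with Trizol and libraries were prepared with a NEBNext Ultra kit, per the labels' protocols. The authors deposited FPKM per gene, with lower and upper bounds in FPKM, per the file headers. The submitters' processing notes name the build mm10 and, with no roles, HTSeq 0.6.1, Cuffdiff 2.1.1, Cufflinks 2.1.1, TopHat2 2.0.8 and CASAVA 2.19. The sources used here do not give whether strand was kept, so antisense and overlapping genes cannot be told apart. The authors also deposited read counts for immunoprecipitation libraries, which were not used here.

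FPKM were summed over the loci of a symbol (24345 symbols, 280 with several loci; 1 failed symbol was left out). Effective fragments were taken from the bounds, read as 2 SD, and divided by FPKM to give an effective transcript length, which is understated where reads are shared between copies. FPKM are not counts, so limma 3.58.1 in R 4.3.3 (limma-trend, 4 libraries, no block) was run on log2(FPKM + 1). Tested genes had to reach a mean of 1 FPKM in one of the groups, and Benjamini-Hochberg adjustment ran over all 12345 of them. Whether the fit holds where 1 group is more spread than the other, as Dppa5a_KD is here, was not tested. Across genes the replicates correlated at 0.980 in Dppa5a_KD and 0.997 in KD_control, and genes are not independent replicates. Figures were drawn with matplotlib 3.10.9.

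The members and the 68 gene lists were chosen with earlier results of these data known. The genes named were Dppa5a, a part of the 15 largest called changes in each direction with at least 10 FPKM and no overlap, and a part of up to 4 called members per direction and 3 others of each list. To these were added a part of the 8 genes in each direction that differed most between the Dppa5a_KD libraries, of the 10 most abundant genes and of those within 500 kb of Dppa5a. Some genes that these rules chose are not reported here. The alternatives were other scalings, pseudocounts and filters, a 2-fold threshold, all 8 RNA-seq libraries in the fit, a length curve, the shortest genes left out, a replicate block, each library left out, and symbols with several loci left out. Promoter windows came from RefSeq.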

Additional observations from a re-analysis of the deposited data

How the results depend on the processing

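Calls rest on 2 libraries a group, and the Dppa5a_KD pair is the more spread one. Of 4618 calls, 1678 were higher and 2940 lower. After rescaling to a common FPKM sum 2916 were called, 1660 of them lower, and after the 10 most abundant genes were left out 3055, with 1793 lower. A filter at 5 FPKM gave 3023, with 1696 lower, a 2-fold threshold 1092, with 305 higher and 787 lower, and all 8 RNA-seq libraries in the fit 2992, with 972 higher. The length curve gave 6480, with 3291 higher. With 1 library left out the count ran from 2415 to 9436, with 627 to 3734 higher and 1788 to 5702 lower. Of the 4618 calls, 2705 were kept after rescaling to a common sum, 2928 with 8 libraries, 4381 with the length curve, 2213 without KD_control replicate 1 and 2198 without replicate 2. The cause of these differences was not tested.

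The replicate numbers pair the libraries in name only: same-numbered libraries deviated together with a correlation of 0.0141, and the fit with a replicate block called 5296 genes. Of 141 named genes that were called, 138 kept the call after rescaling to a common sum, 118 with 8 libraries, 139 with the replicate block, 112 without KD_control replicate 1 and 110 without replicate 2. Fits without a Dppa5a_KD library take their spread from the KD_control pair alone and kept all 141, which shows no stability. Nhp2, Cox7c, Snhg3, Eif3j1, Eif3j2 and Ndufa1, which were not called without it, were called with the replicate block. The calls of Ctnnb1 (limma adjusted p = 0.0736) and Pdk1 (0.0637) ended with the replicate block. No called named gene changed direction.

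Among named genes that did not pass, some log2 fold changes turned. Nodal, at -0.04, was 0.105 after rescaling to a common sum, 0.0313 with median-ratio scaling, 0.0810 without the 10 most abundant genes and 0.0960 with the length curve. Nanog, at -0.13, was 0.0122 after rescaling to a common sum and 0.332 with the length curve, and Uqcr11, at -0.49, was 0.0533 with the length curve. Without Dppa5a_KD replicate 2 and without replicate 1 the values were -0.277 and 0.368 for Pou5f1, -0.169 and 0.0922 for Nodal, -2.06 and 0.127 for Snhg3, -4.37 and 0.530 for Eif3j2, 0.764 and -0.162 for Nup98, -0.0281 and 0.0599 for Eef1a1, 0.530 and -0.406 for Map3k1, and -1.53 and 0.555 for Uqcr11.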
